A study of Mus musculus with 6 samples.

Results

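The 10 antioxidant enzymes described here are superoxide dismutases, glutathione peroxidases, peroxiredoxins and the thioredoxin pair that serves them, and they were chosen by symbol so that each cell compartment was represented. The mitochondrial members are *Sod2*, *Prdx3*, *Prdx5*, *Txn2* and *Txnrd2*, the cytosolic members are *Sod1*, *Gpx1* and *Gpx4*, and the secreted members are *Sod3* and *Gpx3*. In the gene table of 19445 loci, 9 of the 10 had a row of their own. *Prdx5* was only present on a row shared with its neighbour *Esrra*, and that row is described apart from the others. All 9 passed the expression filter, a mean above 1 FPKM (read abundance scaled to transcript length and to library size) in at least 1 genotype, which 11692 loci passed.

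The samples were inguinal white fat (iWAT) from 3 *Hlx* transgenic mice and 3 wild-type littermate controls, all labelled as 12-week-old males, and the question was how far the transgene remodels this depot. Hlx is a homeobox transcription factor. The transgene placed full-length *Hlx* cDNA behind the *aP2* (*Fabp4*) promoter, which is active in adipocytes, and the controls carried no transgene. The founder embryos were C57BL/6 × SJL hybrids, and lines were backcrossed to C57BL/6 for 3 generations or more. SJL sequence still linked to the insertion cannot be told apart from the transgene. Other SJL sequence that remains may differ between the mice. Which founder line was sequenced is not given in the sources used here.

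Superoxide made by the respiratory chain, by NADPH oxidases or by xanthine oxidase is turned into hydrogen peroxide by superoxide dismutases, a manganese enzyme in the mitochondrial matrix and copper and zinc enzymes in the cytosol and outside the cell. Hydrogen peroxide and lipid peroxides are then removed by peroxiredoxins, which thioredoxin and thioredoxin reductase recharge with electrons from NADPH, and by glutathione peroxidases, which draw on glutathione. Each compartment keeps its own set, and brown and beige adipocytes are rich in mitochondria.

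Summed FPKM per library ranged from 466059 to 542096, and the depth of the libraries is unknown. *Hlx* was at 79.6 to 110 FPKM (lowest and highest) in the transgenic mice and 6.88 to 8.14 FPKM in the controls. All 6 libraries carried *Xist*, at 20.2 to 33.6 FPKM, and all 28 Y chromosome loci were listed at 0 in each, which goes against the male label for both genotypes alike. Summed FPKM of 7 skeletal muscle markers was 78.2 to 571 in transgenic and 5.45 to 113 in wild-type iWAT, highest in transgenic replicate 2, and none of the 7 passed the test by limma, 2 of them having an unadjusted p under 0.05. The adipocyte markers were abundant in every library, with summed FPKM of 28199 to 33447 in transgenic and 23904 to 29610 in wild-type mice.

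A feature not used in choosing the members splits them: 4 of the 10 are selenoproteins, in which a UGA codon that would otherwise stop translation is read as selenocysteine, the residue that does the chemistry. The coding sequence around that codon is shown because these 4 transcripts went in both directions in the comparison below. Each line gives 12 bases on either side of the codon, read 5′ to 3′ on the plus strand of mm10 from the GENCODE M21 annotation, with the codon in capitals.
Gpx1: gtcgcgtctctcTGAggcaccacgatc
Gpx3: gtagccagctacTGAggtctgacagac
Gpx4: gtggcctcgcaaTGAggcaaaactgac
Txnrd2: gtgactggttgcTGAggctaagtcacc
The codon lies at chr9:108339451-108339453 in *Gpx1*, chr11:54907256-54907258 in *Gpx3*, chr10:80054737-80054739 in *Gpx4* and chr16:18477772-18477774 in *Txnrd2*. It is codon 47 of 201 in *Gpx1*, 73 of 226 in *Gpx3* and 73 of 197 in the shorter main *Gpx4* coding sequence, so that in the peroxidases most of the protein follows it. In *Txnrd2* it is codon 526 of 527, the last but 1 before the ordinary stop. The other 6 members carry no such codon in the annotation.

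Of the 9 enzymes, 5 were higher in transgenic iWAT by limma on log2(FPKM + 1) at an adjusted p under 0.05, against 11.6% of all tested loci, and 2 were lower, against 7.03% of all. The 5 that rose were the 4 measured mitochondrial enzymes *Sod2*, *Txnrd2*, *Prdx3* and *Txn2* and the phospholipid hydroperoxide peroxidase *Gpx4*. The 2 that fell were the cytosolic peroxidase *Gpx1* and the plasma peroxidase *Gpx3*, and the cytosolic and extracellular dismutases *Sod1* and *Sod3* did not pass the test. The genotypes did not overlap for 7 of the 9, compared with 42.9% of all tested loci. With 3 mice against 3, the exact two-sided permutation test cannot give a p below 0.1, and it gave that value for all 7. The median log2 fold change of the 9 was 0.47, beside -0.01 over all tested loci. Fewer cells of a type and less RNA per cell cannot be told apart in whole tissue.

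**Figure D1:**
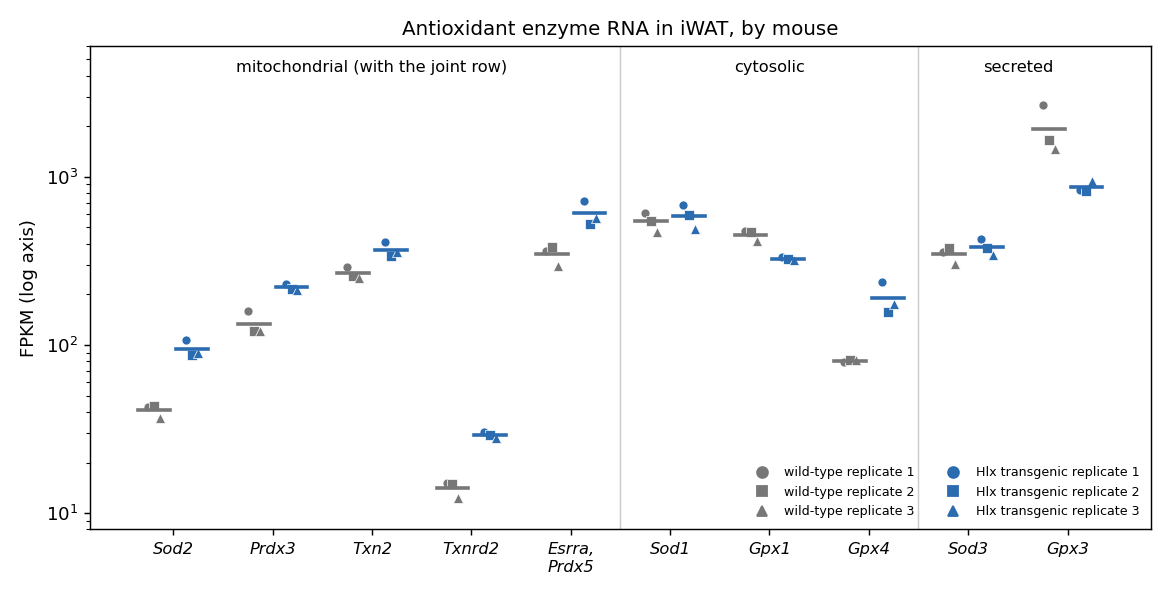
FPKM (log axis) of 9 antioxidant enzymes and of the joint *Esrra,Prdx5* row in iWAT, with 1 point for each mouse, the replicate number as the shape and a bar at the mean of each genotype. The transgenic points lie above all wild-type points for *Sod2*, *Prdx3*, *Txn2*, *Txnrd2*, *Gpx4* and the joint row, below them for *Gpx1* and *Gpx3*, and among them for *Sod1* and *Sod3*.

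*Sod2* (chromosome 17, 13007839 to 13018119, mm10) encodes the manganese dismutase of the mitochondrial matrix. Transgenic mice had 107, 87.7 and 89.4 FPKM, and controls had 43.0, 43.4 and 36.6. Every transgenic mouse stood above every control, at 94.7 ± 10.6 against 41.0 ± 3.80 FPKM (mean ± SD, n = 3 each), a ratio of 2.31. The log2 fold change was 1.19 (SE 0.11, 95% interval 0.92 to 1.45, adjusted p = 0.00113), and it was called in all 14 other fits made.

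*Sod1* (chromosome 16, 90220622 to 90228608), the copper and zinc dismutase of the cytosol, was far more abundant. In the transgenic mice it measured 678, 592 and 492 FPKM, compared with 611, 547 and 472 FPKM in the controls. These ranges overlapped, and the log2 fold change of 0.11 (SE 0.16, 95% interval -0.27 to 0.49, adjusted p = 0.659) changed sign to -0.27 under quantile normalization and to -0.00043 without transgenic replicate 1. The interval still allows a change of either sign. GENCODE M21 holds a *Sod1* pseudogene 97.85% identical to it over 465 bases, which has no row in the table, so reads could be shared with it.

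*Sod3* (chromosome 5, 52363741 to 52370203) encodes the dismutase secreted into the extracellular matrix. Its FPKM was 429, 379 and 341 in transgenic iWAT and 359, 377 and 303 in wild-type iWAT, again with overlap. The log2 fold change was 0.14 (SE 0.13, 95% interval -0.17 to 0.46, adjusted p = 0.471), and it became -0.20 under quantile normalization.

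Because the dismutases share a substrate and differ in place, their FPKM was also set against each other within each mouse, a ratio that a scaling factor per library cannot change. *Sod2* over *Sod1* was 0.158, 0.148 and 0.182 in the transgenic mice, compared with 0.0704, 0.0793 and 0.0775 in the controls. The ranges did not overlap, and the ratio was 2.14 times higher in transgenic iWAT (exact permutation p = 0.1, the smallest possible; adjusted over the 8 ratios taken, 0.16). For *Sod2* over *Sod1* the absence of overlap follows from the levels of both genes already given. *Sod3* over *Sod1* differed by a factor of 1.02 with overlapping values (exact permutation p = 0.8). *Sod1* remained the most abundant dismutase transcript per length in every library of both genotypes.

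*Prdx3* (chromosome 19, 60864066 to 60874538) encodes the peroxiredoxin that removes hydrogen peroxide in the mitochondrial matrix. FPKM reached 231, 216 and 214 in transgenic iWAT, compared with 159.6, 121 and 121 in control iWAT. The lowest transgenic value was well above the highest control, and the log2 fold change was 0.72 (SE 0.13, 95% interval 0.42 to 1.03, adjusted p = 0.0108). It was called in all 14 other fits, where it ran from 0.46 to 0.86.

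*Txn2* encodes mitochondrial thioredoxin, the electron donor of Prdx3. Its FPKM was 409, 339.6 and 357 in transgenic iWAT and 290.0, 259 and 250.2 in wild-type iWAT, without overlap (locus at chromosome 15, 77915039 to 77929003). The log2 fold change of 0.47 (SE 0.11, 95% interval 0.19 to 0.74, adjusted p = 0.0334) was the smallest of the 5 that rose. It was not called under quantile normalization (0.15, adjusted p = 0.224), nor without transgenic replicate 1 or 3 or wild-type replicate 2 or 3 (adjusted p 0.0804 to 0.109).

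*Txnrd2* encodes the reductase that passes electrons from NADPH to Txn2, and it is the mitochondrial selenoprotein of the set. It was the least abundant member in every library, with FPKM of 30.3, 29.2 and 27.8 in the transgenic mice, compared with 15.0, 14.8 and 12.2 in the controls. The replicates were tight and the genotypes well apart, at 29.1 ± 1.24 against 14.0 ± 1.56 FPKM (mean ± SD, n = 3 each). The log2 fold change was 1.01 (SE 0.10, 95% interval 0.78 to 1.23, adjusted p = 0.00119), and every other fit called it. Its locus in the file (chromosome 16, 18348274 to 18479073) is shared by 3 rows of the table, so reads could be divided between them.

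*Prdx5*, a peroxiredoxin found in mitochondria, peroxisomes and the cytosol, could not be measured alone. The row joining it to *Esrra*, the gene of the nuclear receptor ERRα (chromosome 19, 6906699 to 6921933), was at 721, 523 and 571 FPKM in the transgenic mice, compared with 362, 384 and 296 FPKM in the controls. That joint value was higher in every transgenic mouse (log2 fold change 0.80, SE 0.16, 95% interval 0.41 to 1.18, adjusted p = 0.0183). How it divides between the genes cannot be read from it. *Trmt112*, whose transcripts overlap *Prdx5* over 360 bases, was listed on the same locus at essentially 0. Reads from *Trmt112* could therefore be counted in the joint row.

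The thiol enzymes were next set against their cytosolic counterparts within each mouse. *Txnrd2* over *Txnrd1*, the cytosolic reductase, was 1.13, 1.18 and 1.08 in transgenic and 0.724, 0.728 and 0.583 in wild-type iWAT, so that the mitochondrial transcript passed from below the cytosolic one to above it per length. *Prdx3* over *Prdx1* was 1.51, 1.64 and 1.59 against 1.29, 1.21 and 1.23. Both ratios were without overlap, 1.67 and 1.27 times higher (exact permutation p = 0.1 each, 0.16 adjusted). *Prdx3* over *Prdx2* and *Txn2* over *Txn1* overlapped between genotypes, at 1.06 and 1.10 times the control ratio (exact permutation p = 0.9 and 0.4). *Prdx3* against *Prdx1* thus shifted towards the mitochondrial transcript without overlap, at the smallest p that 3 mice against 3 allow. The dismutase ratio *Sod2* over *Sod1* and the reductase ratio did so too, but there the absence of overlap follows from the levels of the single genes. The values overlapped against *Prdx2* and *Txn1*.

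**Figure D2:**
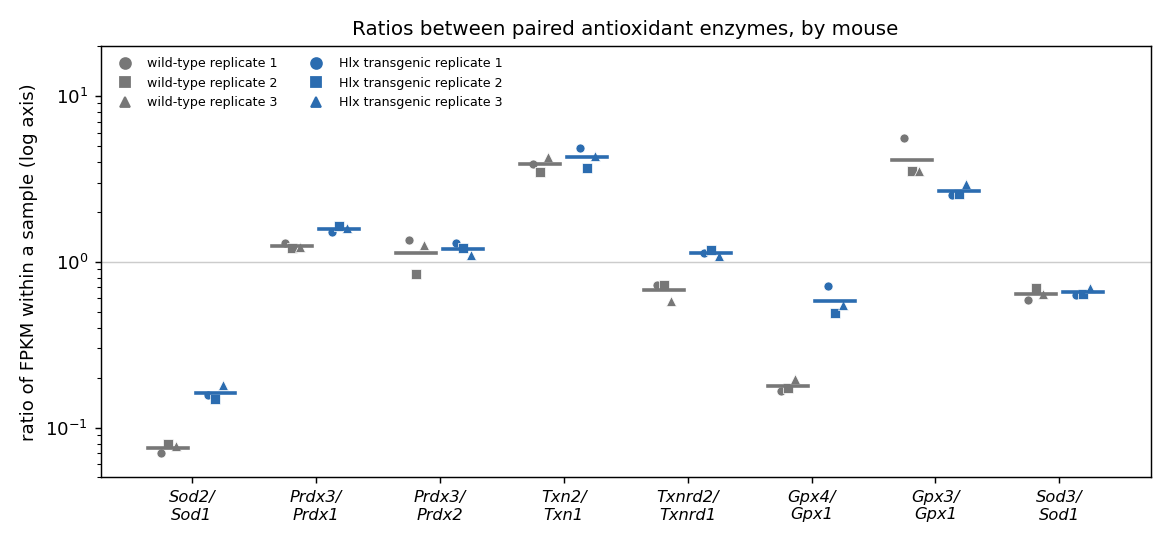
Ratio of FPKM (log axis) between enzymes of the same kind, taken within each mouse, with the replicate number as the shape and a bar at the geometric mean of each genotype. The transgenic ratios lie above all wild-type ratios for *Sod2*/*Sod1*, *Prdx3*/*Prdx1*, *Txnrd2*/*Txnrd1* and *Gpx4*/*Gpx1*, below them for *Gpx3*/*Gpx1*, and overlap them in the other 3.

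*Gpx4* encodes the peroxidase that reduces lipid hydroperoxides within membranes. It is made in cytosolic, mitochondrial and nuclear forms from alternative starts, and the gene FPKM sums them, so its place among the cytosolic members is only that of the main form. Transgenic mice had 237, 158 and 175 FPKM, and controls had 78.7, 80.9 and 81.0. The controls were nearly identical while the transgenic mice spread more widely, all above them, and the log2 fold change was 1.21 (SE 0.15, 95% interval 0.85 to 1.57, adjusted p = 0.0031). It was called in all 14 other fits. The annotated transcript *Gpx4-ps2* is 99.74% identical to *Gpx4* over 762 bases and has no row in the table, and the file gives *Gpx4* a locus shared by 41 rows (chromosome 10, 79697305 to 80369637), so its value is uncertain to that extent.

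*Gpx1* (chromosome 9, 108339080 to 108340344), the abundant cytosolic glutathione peroxidase, went the other way. Its FPKM was 332, 323 and 319 in transgenic iWAT and 475, 468 and 415 in wild-type iWAT. All transgenic values were below all control values, with a ratio of means of 0.717, and the log2 fold change was -0.48 (SE 0.10, 95% interval -0.72 to -0.24, adjusted p = 0.0202). The call was lost without transgenic replicate 3 or wild-type replicate 1 or 2 (adjusted p 0.0552 to 0.0765). *Gpx1* is also strongly expressed in macrophages, whose markers were lower in the same libraries as given below, and their part in the result was not tested.

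*Gpx3* encodes the glutathione peroxidase secreted into plasma, and it was the most abundant member in every library. In the transgenic mice it measured 837, 825 and 941 FPKM, compared with 2660.2, 1658 and 1456 FPKM in the controls. Wild-type replicate 1 was far above the other controls, but the lowest control was still above the highest transgenic mouse. The log2 fold change was -1.10 (SE 0.24, 95% interval -1.66 to -0.54, adjusted p = 0.021), and it was -0.84 and still called without wild-type replicate 1. It was not called without transgenic replicate 1 or 3 (adjusted p = 0.0611 and 0.0575). The file places it on a locus shared with *Tnip1* (chromosome 11, 54883812 to 54962940).

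The peroxidases were also compared in their proportions within each mouse. *Gpx4* over *Gpx1* was 0.715, 0.488 and 0.549 in transgenic iWAT and 0.166, 0.173 and 0.195 in wild-type iWAT, a ratio 3.25 times higher, where the absence of overlap follows from the levels of both genes already given. *Gpx3* over *Gpx1* was 2.52, 2.56 and 2.95 against 5.60, 3.54 and 3.51, or 0.649 times the control ratio, without overlap (exact permutation p = 0.1, 0.16 adjusted). Here too the absence of overlap follows from the levels of both genes already given. Among the 4 selenoproteins 2 rose and 2 fell, and among the 5 measured members without selenocysteine 3 rose, none fell and 2 did not pass the test.

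**Figure D3:**
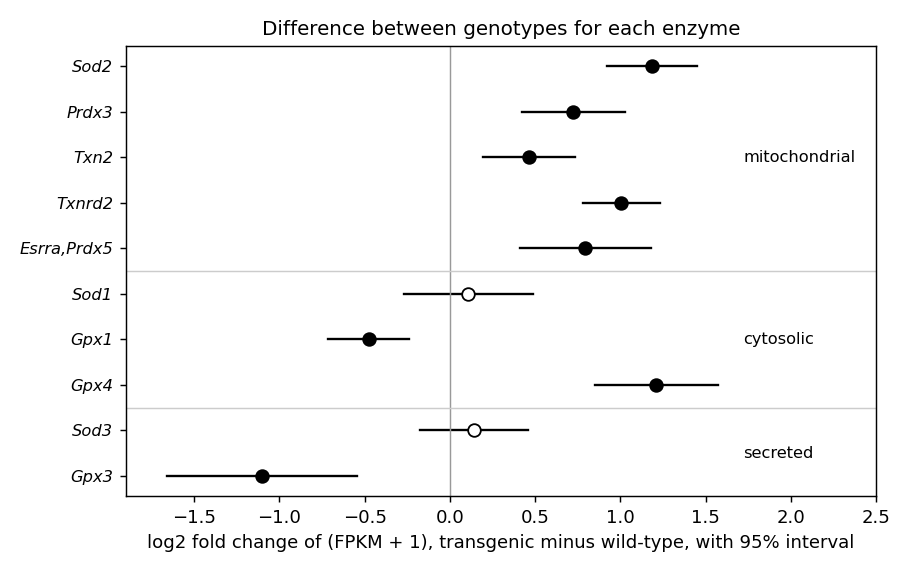
Log2 fold change of FPKM + 1, transgenic minus wild-type, for each enzyme and the joint row, with the 95% interval from limma as the line and filled points for adjusted p under 0.05. The 4 mitochondrial enzymes, the joint row and *Gpx4* lie to the right of 0, *Gpx1* and *Gpx3* to the left, and the intervals of *Sod1* and *Sod3* span 0.

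By the compartment assigned to each enzyme here, the 4 measured mitochondrial members had a median log2 fold change of 0.87. Of these, 4 were higher and none lower. Each enzyme was counted in a single compartment, so any mitochondrial share of the cytosolic members *Gpx1*, *Gpx4* or *Sod1* is not in these counts. The 84 electron transport and ATP synthase subunits, 82 of them tested, had a median of 0.94 with 68 higher and 0 lower by limma (1 lower at an unadjusted p under 0.05), given here as a description beside the enzymes' 0.87. The 3 cytosolic members had a median of 0.11 and the 2 secreted members -0.48. The summed FPKM of the 4 mitochondrial members was 673 to 777 in transgenic and 420.4 to 508 in wild-type iWAT, and that of the secreted members was 1204 to 1282 against 1759 to 3019.

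The order of levels changed in the middle of the range. In the controls it ran *Gpx3*, *Sod1*, *Gpx1*, *Sod3*, *Txn2*, *Prdx3*, *Gpx4*, *Sod2* and *Txnrd2* from high to low FPKM, and the ranges of neighbours overlapped only for *Sod1* and *Gpx1*. In the transgenic mice *Gpx1* came below *Sod3* and *Txn2*, and the overlapping neighbours were *Sod3* with *Txn2* and *Prdx3* with *Gpx4*. The extremes, *Gpx3* at the top and *Sod2* and *Txnrd2* at the bottom, held their places.

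Over the 6 samples, the loci outside the set whose log2(FPKM + 1) followed *Sod2* most closely were *Ndufb8*, *Zadh2* and *Cox17*, each with a Pearson r of 0.999, and 880 loci had an r over 0.95 with it. For *Gpx3* they were *Slc39a10*, *Rcl1* and *Prps1*, with r of 0.989, 0.988 and 0.987, and 95 loci had an r over 0.95. These values describe 6 points that share the genotype difference and the libraries.

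The genes that supply or recharge the enzymes were read from 8 further lists holding 72 genes. Of the 68 tested, 15 were higher and 6 lower, beside 11.6% and 7.03% of all tested loci, and their median log2 fold change was 0.20. The share that was lower was near that of all loci. In the cytosolic thiol and copper list 5 of 13 rose and none fell, with a median of 0.36. *Srxn1*, sulfiredoxin, which repairs overoxidized peroxiredoxins, rose by 1.16 (adjusted p = 0.00557), *Ccs*, the copper chaperone that loads Sod1, by 0.81 (adjusted p = 0.00951) and *Prdx2* by 0.64 (adjusted p = 0.0277), each as a log2 fold change. *Txnrd1* also rose (0.30, adjusted p = 0.0257), while *Prdx1* (0.38, adjusted p = 0.0655), *Txn1* (0.32, adjusted p = 0.0972) and the copper carrier *Atox1* (0.42, adjusted p = 0.101) did not pass the test. The copper chaperone of Sod1 thus differed while *Sod1* itself did not pass the test; the difference between them was not tested.

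In the list of NADPH-making enzymes 4 of 8 rose and 1 fell, with a median log2 fold change of 0.41. The mitochondrial enzymes *Me3* (1.68, adjusted p = 0.00168) and *Idh2* (1.13, adjusted p = 0.0128) rose, as did *Pgd* of the cytosolic pentose phosphate pathway (0.62, adjusted p = 0.0234). *Nnt*, the inner membrane transhydrogenase that makes NADPH for Txnrd2 and glutathione reductase, fell to 3.14 ± 0.38 from 5.73 ± 0.49 FPKM (mean ± SD, n = 3 each; log2 fold change -0.70, adjusted p = 0.00585). *Nnt* was low in both genotypes and *Me3* was at 0.278 FPKM in the controls, and at such levels the log2(FPKM + 1) scale understates a change.

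For glutathione, 3 of 7 tested genes rose and none fell (median 0.26). They were *Slc25a39*, the carrier that brings glutathione into mitochondria (0.85, adjusted p = 0.0089), *Gss*, glutathione synthetase (0.53, adjusted p = 0.0324), and *Gclm*, the modifier subunit of the first synthetic step (0.43, adjusted p = 0.0151). *Gsr*, which recycles oxidized glutathione for both compartments, was at 17.1 ± 2.28 against 17.7 ± 1.99 FPKM with overlap (adjusted p = 0.772).

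Among the other mitochondrial redox enzymes, 6 of 7 had a positive log2 fold change and *Mgst3* alone had a negative one. *Msra* (0.48, adjusted p = 0.044) and *Msrb2* (0.42, adjusted p = 0.0494), which reduce oxidized methionine, rose, among 7 tested genes with a median of 0.28. The microsomal glutathione transferase *Mgst3* fell by 1.60 on the log2 scale (adjusted p = 0.00182). Its name places *Mgst3* in the endoplasmic reticulum, so its place in the mitochondrial list is uncertain. In the endoplasmic reticulum and peroxisome, *Gpx8* rose from 103 ± 33.8 to 256 ± 5.37 FPKM (log2 fold change 1.35, adjusted p = 0.00713). Catalase (*Cat*), the peroxisomal enzyme that splits hydrogen peroxide, was at 459 ± 31.5 against 489 ± 103 FPKM with overlap (adjusted p = 0.798). That list of 4 had 1 gene higher and 0 lower by limma (0 also at an unadjusted p under 0.05), with a median of -0.06.

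The NRF2 list, named for the factor that induces many antioxidant genes, had 0 of 9 genes higher by limma (1 at an unadjusted p under 0.05) and 1 lower, *Abcc1* (-0.38, adjusted p = 0.0304), with a median of -0.03, counts too small to set apart from the 11.6% and 7.03% of all tested loci. The 9 genes are only part of those that NRF2 can induce, and genes of the other lists were not sorted by it. NRF2 activity was not tested. *Nfe2l2*, which encodes NRF2, was at 55.4 ± 6.39 against 49.2 ± 2.72 FPKM (adjusted p = 0.29). Its inhibitor *Keap1* was at 29.5 ± 3.01 against 26.9 ± 0.25 FPKM (adjusted p = 0.349). The selenoprotein list, which covers the supply side of *Gpx1*, *Gpx3*, *Gpx4* and *Txnrd2*, had 0 of 13 genes called in either direction by limma (4 higher and 1 lower at an unadjusted p under 0.05), with a median of 0.06. *Sepp1*, the selenium carrier of plasma, was at 855 ± 12.4 against 824 ± 79.0 FPKM (adjusted p = 0.766).

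All 7 tested sources of superoxide and hydrogen peroxide had a negative log2 fold change, and 3 of them fell, with a median of -0.55. They included *Cybb*, a subunit of the phagocyte NADPH oxidase (-0.70, adjusted p = 0.0325), and *Xdh*, xanthine oxidoreductase (-0.35, adjusted p = 0.0265). *Cybb* is expressed mainly by phagocytes. Summed FPKM of 7 macrophage markers was 357 to 503 in transgenic and 747 to 953 in wild-type iWAT, with 5 of 7 lower, and its part in these results was not tested.

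**Figure D4:**
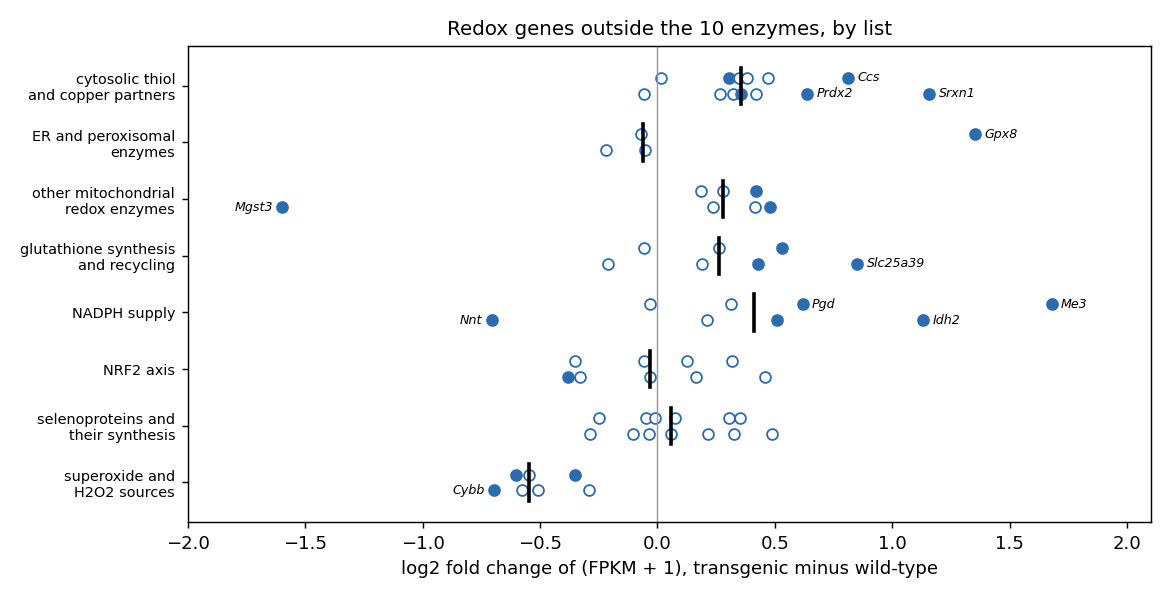
Log2 fold change of FPKM + 1, transgenic minus wild-type, for the tested genes of 8 redox lists, with 1 point for each gene, filled for adjusted p under 0.05, and a black bar at the list's median. The NADPH and thiol lists have medians of 0.41 and 0.36, the NRF2 and selenoprotein lists lie around 0, and the superoxide sources lie to the left.

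Among the calls in these lists, *Srxn1*, *Ccs*, *Gpx8*, *Mgst3*, *Slc25a39*, *Nnt*, *Idh2* and *Me3* held in all 14 other fits, and no called gene changed sign in any. *Gclm* held in 13 of 14, *Xdh* in 10 of 14, *Txnrd1*, *Pgd* and *Abcc1* in 9 of 14 and *Cybb* in 8 of 14. *Prdx2* and *Gss* held in 7 of 14, and *Msra* and *Msrb2* in 6 of 14. The highest adjusted p over those fits was 0.314 for *Pgd*, and between 0.0572 and 0.139 for the others named here that lost their call.

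Markers of the other cells of the depot were read beside these results. Lymphocyte markers had 1 of 6 lower (summed FPKM 165 to 246 in transgenic, 242 to 352 in wild-type), endothelial markers 2 higher and 1 lower of 8 (179 to 188 against 177 to 185), and smooth muscle markers 0 of 6 called by limma (2 at an unadjusted p under 0.05; 108 to 227 against 168 to 233). Fibroblast and progenitor markers had 0 of 8 called (2 at an unadjusted p under 0.05; 1145 to 1561 against 1372 to 1836), and epithelial markers 0 of 6 (1 at an unadjusted p under 0.05; 120.3 to 240.4 against 207 to 274). Of the 6 tested adipocyte markers 1, *Adipoq*, was lower. The single tested erythroid marker, *Alas2*, was higher, and red blood cell precursors also express *Prdx2* and *Gpx1*; only 2 of the 6 erythroid markers had a row, and no marker with a row was at 0 in all libraries. Summed FPKM of the skeletal muscle markers was 78.2, 571 and 109 in the transgenic mice, compared with 5.45, 113 and 28.1 in the controls. Without transgenic replicate 2, where it was highest, 5 of the enzymes were higher and 2 lower, but the other transgenic mice also had more than wild-type replicates 1 and 3, and its part in the results was not tested.

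The promoters were searched because the mitochondrial members rose together. RefSeq promoters (GRCm38.p6, 250 bases before to 50 after the start) were matched for 9 of the 10 members, 12 promoters in all, and none was matched for *Sod3*. The core of the antioxidant response element, TGACNNNGC on either strand, was in 12.4% of 32851 promoters and in 1 of the 12, that of *Sod1*. A half-site for estrogen-related receptors, TNAAGGTCA, was in 1.28% of all promoters and 0 of the 12, and the NRF1 core, GCGCATGCG, in 1.75% and 0 of the 12. The 100 bases before the RefSeq start are shown for the cytosolic and mitochondrial dismutases, plus strand, 5′ to 3′. The *Sod1* locus given above begins earlier, at 90220622, so the *Sod1* window lies inside that locus. The match to the antioxidant response element core is in capitals.
Sod1, chr16:90220662-90220761: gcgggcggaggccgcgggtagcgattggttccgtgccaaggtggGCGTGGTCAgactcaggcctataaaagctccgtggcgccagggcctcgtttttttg
Sod2, chr17:13007739-13007838: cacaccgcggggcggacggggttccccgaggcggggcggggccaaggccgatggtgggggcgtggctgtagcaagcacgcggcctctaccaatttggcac
The match lies on the minus strand upstream of the RefSeq start of *Sod1*, whose RNA did not pass the test, and a match to letters is only that. The GC content of the 12 promoters ran from 47% to 68.33%, beside a median of 52.67% over all.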

How the data were processed

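RNA was isolated from iWAT with Trizol, and TruSeq v2 libraries were sequenced as single reads of 100 bases. According to the submitters' processing notes, CASAVA 1.8.2, TopHat2 2.0.9, Bowtie2 2.1.0 and Cufflinks 2.2.1 were used with mm10; the gene annotation is not given in the sources used here. The authors deposited FPKM values per gene, normalized for transcript length and library size by Cufflinks, and no counts, so absolute depth is unknown.

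Log2(FPKM + 1) was fitted with limma 3.58.1 (R 4.3.3; lmFit, eBayes with trend, two-sided) over 11692 loci with a mean above 1 FPKM in at least 1 genotype, and p-values were adjusted by Benjamini-Hochberg over all of them. Fold changes on this scale understate changes of low genes. Each genotype had 3 mice, 6 in all, so p-values measure the spread between 3 animals. The fit was tested on simulated data. Within-mouse ratios were compared by exact permutation tests in Python 3.11.15. The ratios were chosen after the values were seen, and the members and all lists were chosen with earlier results of these data known. Genes named from the lists were up to 3 called in each direction with the largest log2 fold change, plus direct partners of the members. Near-identical transcripts (at least 95% identity over 100 bases) were found with blastn 2.17.0 in GENCODE M21, and coordinates are those of mm10. Alternatives were quantile and median-ratio scaling, a pseudocount of 0.1, other filters, no trend, sample weights, a replicate block, each mouse left out and stricter calls. Some results are not reported here.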

Additional observations from a re-analysis of the deposited data

How the results depend on the processing

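*Sod2*, *Prdx3*, *Txnrd2* and *Gpx4* kept their direction and call in all 14 other fits. Under quantile normalization *Txn2* was 0.15 and not called (adjusted p = 0.224), and *Sod1* (-0.27) and *Sod3* (-0.20), not called in any fit, changed sign; *Sod1* was -0.00043 without transgenic replicate 1. With no filter *Gpx3* stayed at -1.10 with an adjusted p of 0.0557, and 1 enzyme was lower. The cause was not tested, other than that no filter adds loci to the adjustment. At an adjusted p under 0.01, 3 enzymes were higher and 0 lower, 5 and 2 list genes, and 569 and 199 loci; with at least a 2-fold ratio these were 3 and 1, 4 and 1, and 413 and 204.

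Leaving out each mouse in turn gave 4 to 5 enzymes higher and 0 to 2 lower (0 without transgenic replicate 3), 7 to 12 list genes higher and 2 to 8 lower, and 780 to 1295 loci higher and 329 to 906 lower, with fewer samples in each fit. The lowest counts came without transgenic replicate 1 or 3 or wild-type replicate 2 or 3 alike for higher enzymes, without transgenic replicate 1 or wild-type replicate 3 for higher list genes, without wild-type replicate 3 for higher loci, and without transgenic replicate 3 for lower enzymes, list genes and loci. Log2 fold changes ranged over 0.39 to 0.53 for *Txn2*, -0.00043 to 0.23 for *Sod1*, 0.05 to 0.22 for *Sod3*, -0.54 to -0.44 for *Gpx1* and -1.28 to -0.84 for *Gpx3*.

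Same-numbered mice did not deviate together (r of 0.0129, 0.0344 and 0.0701), and not every sample correlated best with its own number, so the numbers were not taken as pairs. With the replicate number as a block, 5 enzymes were higher and 2 lower, as were 16 and 4 list genes and 1230 and 656 loci. An alternative chosen after seeing the data, counting the joint *Esrra,Prdx5* row as a member, gave 6 higher. Depth is not known, so no limit from counting can be given.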
